A study of Mus musculus with 8 samples.

Results

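The genes described here are Ppara, which encodes the nuclear receptor PPAR-alpha, and 6 of its strongly inducible targets, Cyp4a10, Cyp4a14, Vnn1, Pdk4, Acot1 and Pex11a. They were selected on their gene symbol in the platform annotation, with the measured ranges of Ppara, Cyp4a14 and Vnn1 in these livers already in view. The 7 genes have 7 probe sets, 1 each, among the 8251 genes that the annotation names by a single symbol, and all 7 passed the filter on low signals. Their levels and ranges are therefore a description, given without a test.

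The samples were livers of 8 female Ames dwarf mice (df/df), each measured on its own Affymetrix mouse U74Av2 oligonucleotide array. All 8 mice had free access to standard pelleted food and their livers were taken when they were 24 to 26 months old, so the samples form 1 group and no comparison between groups was possible. Ames dwarf mice make no growth hormone, no prolactin and no thyroid-stimulating hormone, a state that all 8 livers shared. The livers are numbered as in the labels, which do not say outright that every sample came from a different mouse. They were treated as separate mice. The p-values given below test relations between signals over these samples, and part of the spread between samples may be technical.

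PPAR-alpha is a transcription factor that is switched on by fatty acids and their derivatives. It binds DNA as a pair with the retinoid X receptor, at 2 copies of a short hexamer spaced by 1 base, and recruits co-activators or co-repressors. In liver it is best known for raising fatty acid oxidation in mitochondria, peroxisomes and microsomes during fasting. Its activity is set largely by ligand and co-regulators, so the level of its mRNA and the level of its targets are separate measurements.

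The table of RefSeq promoters held entries for 4 of the 7 genes, Ppara, Pdk4, Acot1 and Pex11a. The 250 bases before the gene start are shown for the 3 targets among them. A relation between these sequences and the signals was not tested. They lie at chr12:84009252-84009501 on the plus strand for Acot1, chr7:79743132-79743381 on the minus strand for Pex11a and chr6:5496279-5496528 on the minus strand for Pdk4 (GRCm38.p6). Each sequence is written in the direction of transcription, and capitals mark matches to the hexamer AGGNCA, which was searched on both strands.
Acot1: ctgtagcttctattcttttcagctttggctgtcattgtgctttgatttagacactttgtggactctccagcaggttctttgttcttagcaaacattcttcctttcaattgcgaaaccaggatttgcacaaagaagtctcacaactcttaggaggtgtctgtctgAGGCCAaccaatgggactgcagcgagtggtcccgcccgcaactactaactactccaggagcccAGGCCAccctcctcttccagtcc
Pex11a: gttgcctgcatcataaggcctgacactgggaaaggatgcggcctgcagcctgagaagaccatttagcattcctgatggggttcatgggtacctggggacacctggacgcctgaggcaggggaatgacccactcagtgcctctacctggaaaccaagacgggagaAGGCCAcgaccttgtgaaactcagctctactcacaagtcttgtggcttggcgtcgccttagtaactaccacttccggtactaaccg
Pdk4: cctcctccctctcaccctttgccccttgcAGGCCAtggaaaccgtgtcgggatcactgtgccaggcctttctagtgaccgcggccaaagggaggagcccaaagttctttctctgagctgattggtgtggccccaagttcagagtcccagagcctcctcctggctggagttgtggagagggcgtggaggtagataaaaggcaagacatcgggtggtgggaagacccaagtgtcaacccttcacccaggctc
Acot1 held 2 hexamers, which began 86 and 23 bases before the start. Pex11a held 1, at 86 bases, and Pdk4 held 1, at 221 bases, and none overlapped another. The window of Ppara, which is not shown, held 1, at 114 bases. Of 32851 promoter windows of the same length, 51.3% held at least 1 hexamer and 18.0% held at least 2, so these matches are common. The full tandem AGGNCANAGGNCA was in 0.338% of the windows and in none of the 4 of the genes described here, which says only that these letters are not in these windows.

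The arrays were close to each other in scale, with medians from 155.6 in liver 3 to 177.9 in liver 4 and 180.75 in liver 8. Any 2 of them correlated at 0.907 to 0.973 over the 6211 tested probe sets (a correlation across genes, which are no independent replicates). Spike-in controls, 9 probe sets, had a mean log2 signal of 10.70 to 10.88 on arrays 1 to 4 and 10.18 to 10.46 on arrays 5 to 8, although the labels name no batch. The 3′ to 5′ signal ratio of the pyruvate carboxylase controls was 8.81 in liver 2 and 6.04 in liver 3, and 2.93 to 4.69 in the other 6. Markers of hepatocytes were present, with 9 of 9 measured genes among those tested, while the bile duct genes Krt7, Krt19, Epcam and Cftr were under the filter signal of 162 on every array. In whole liver, fewer cells of a type and less RNA per cell cannot be told apart.

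The receptor's own mRNA differed 5.79-fold between livers. The Ppara signal, a deposited linear intensity, was 1249.5 in liver 1, 3164 in liver 2, 3925 in liver 3, 2428.5 in liver 4, 883 in liver 5, 678 in liver 6, 3194 in liver 7 and 1692 in liver 8 (2151.5 ± 1203, SD, n = 8). Livers 2, 3 and 7 were high, livers 1, 5 and 6 were low, and livers 4 and 8 lay between them. Each liver had 1 array, so the order of neighbouring livers has no error of its own. The log2 SD of Ppara was larger than that of 98.5% of tested probe sets.

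Cyp4a14 and Cyp4a10 encode microsomal cytochrome P450 enzymes that hydroxylate the omega end of fatty acids. The Cyp4a14 signal was 711 in liver 4, 1458 in liver 8, 3195 in liver 1, 4678.5 in liver 5, 5196 in liver 6, 5598 in liver 7, 5612 in liver 3 and 6396 in liver 2 (4105.75 ± 2092, SD, n = 8). Its log2 range was 3.17 over all livers and 2.13 without liver 4. It spanned 8.99-fold over all livers and 2.0-fold without livers 4 and 8, which were the lowest. Cyp4a10 ran from 1820 in liver 4 through a median of 4424 to 6252 in liver 2, a 3.44-fold range that was 2.20-fold without livers 4 and 8. Its probe set is marked by the manufacturer as sharing sequence within a gene family, so signal from other Cyp4a genes could be included. Liver 5, at 2847, was the next lowest for Cyp4a10, below liver 8 at 3050.0, whereas for Cyp4a14 liver 5 lay among the higher 6.

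Acot1 encodes a cytosolic thioesterase that splits long-chain acyl-CoA into free fatty acid and coenzyme A. Its signal was lowest in liver 4 at 78.7, had a median of 297 and was highest in liver 2 at 413, a 5.25-fold range. Livers 4 and 8 were again the lowest, and without them the range was 1.56-fold. The log2 range was 2.39 over all livers and 1.13 without liver 4 alone. Acot1 has close paralogues in the genome, and its probe set carries no mark of shared sequence.

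Vnn1 encodes vanin-1, an enzyme that releases pantothenic acid and cysteamine from pantetheine. Its signal was lowest in liver 4 at 78.7, had a median of 234 and was highest in liver 2 at 604, a 7.68-fold range. The log2 range of Vnn1 was 2.94 over all livers, 1.93 without liver 2 and 1.55 without livers 4 and 8. Liver 2 alone was above 300.2, the value of liver 3, and livers 4 and 8 were the only livers under the filter signal of 162. Without detection calls, such a signal may be background, so the 2 lowest Vnn1 values and the lowest Acot1 value are of uncertain level.

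Pdk4 and Pex11a varied least among the 7 genes. Pdk4, a kinase that switches off pyruvate dehydrogenase and so spares glucose, ran from 163 in liver 1 through a median of 241 to 294 in liver 4, a 1.80-fold range, or 0.85 on the log2 scale and 0.53 without liver 1. Liver 4, which had the lowest Cyp4a10, Cyp4a14, Acot1 and Vnn1 signals, thus had the highest Pdk4 signal. Pex11a, a membrane protein that helps peroxisomes divide, ran from 587 in liver 6 through a median of 841.5 to 1109 in liver 3, a 1.89-fold range. Its lowest and highest livers were those of Ppara. The median fold range was 5.25 over the 7 genes and 1.63 over all tested probe sets, a contrast that the choice of genes by their range partly sets.

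**Figure D1:**
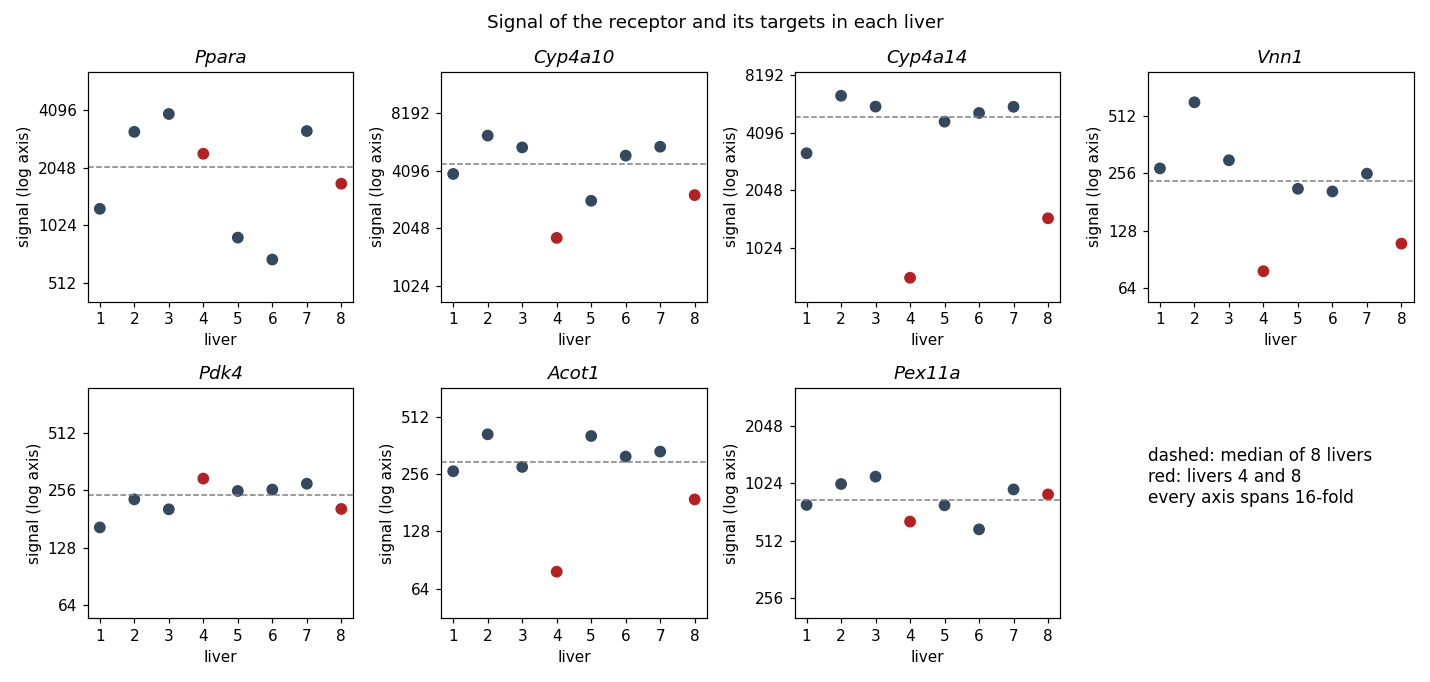
Signal (log axis, each spanning 16-fold) of the 7 genes in livers 1 to 8, with 1 point per array, the median of 8 livers as a dashed line and livers 4 and 8 in red. Cyp4a10, Cyp4a14, Vnn1 and Acot1 were lowest in liver 4, Pdk4 was highest there, and Ppara and Pex11a were lowest in liver 6 and highest in liver 3.

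To ask whether the targets followed the receptor, the log2 signal of every tested probe set was fitted on that of Ppara over the 8 livers with limma, and p-values were adjusted over all 6210 other tested probe sets. None of the 6 targets passed an adjusted p of 0.05. At an unadjusted p under 0.05 only Pex11a did, and an exact permutation test of each correlation gave the same counts. Of all tested probe sets 10 (0.161%) rose with Ppara and 0 (0%) fell, with 392 at an unadjusted p under 0.05. The median Pearson r with Ppara was 0.13 over the 6 targets and -0.05 over all tested probe sets, and 4 of the 6 were above 0, against 45.1% of all tested probe sets.

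Pex11a was the target whose level lay closest to a line with Ppara. A doubling of the Ppara signal went with a 1.19-fold higher Pex11a signal (95% interval 1.04 to 1.36). Its r was 0.74 and its Spearman rho 0.83 over 8 livers, with exact permutation p of 0.0423 and 0.0154, two-sided, and an limma adjusted p of 0.711. The value therefore failed the correction for 6210 tests. Liver 4 stood apart from the line, with a middle Ppara signal and a low Pex11a signal. Without it r was 0.94 and without liver 6 it was 0.57, the extremes when each liver was left out. Without livers 5 and 6, the farthest from the median of Ppara, r was 0.56 (exact permutation p = 0.246), so the relation rests in part on those livers. Without livers 4 and 8, r was 0.94 (exact permutation p = 0.00278) and the limma adjusted p was 0.192.

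The omega-hydroxylases and the other targets gave wide intervals that include no relation. For Cyp4a14 r with Ppara was -0.0002 (exact permutation p = 0.9995), and a doubling of Ppara went with a fitted 1.0-fold Cyp4a14 signal (95% interval 0.462 to 2.16). Its rho was 0.45 (exact permutation p = 0.267). In livers 4 and 8 Ppara was near its median while Cyp4a14 was lowest. The interval allows anything from a strong fall to a strong rise, so the 8 livers do not show that Cyp4a14 and Ppara were unrelated.

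For Cyp4a10 r was 0.26 (exact permutation p = 0.530) and the fitted change per doubling of Ppara was 1.12-fold (95% interval 0.799 to 1.58). For Vnn1 r was 0.23 (exact permutation p = 0.586), with a fitted change of 1.16-fold (95% interval 0.700 to 1.94). Both estimates were above 0 with intervals on both sides of no change. For Pdk4 r was 0.04 (exact permutation p = 0.933) and the fitted change was 1.01-fold (95% interval 0.838 to 1.21), the narrowest interval among the targets after that of Pex11a. For Acot1 r was -0.16 (exact permutation p = 0.748), with 0.913-fold per doubling (95% interval 0.586 to 1.42). Adjusted limma p-values of the 5 targets other than Pex11a were 0.932 or higher.

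Leaving out livers 5 and 6 gave r with Ppara of 0.45 for Cyp4a10, 0.46 for Cyp4a14, 0.35 for Vnn1, 0.55 for Pdk4 and 0.26 for Acot1. Leaving out livers 4 and 8 gave 0.68, 0.51, 0.64, -0.07 and -0.02 in the same order, and none of the 6 targets passed the adjusted limma threshold there. The estimates for the Cyp4a genes, Vnn1 and Acot1 were thus higher in both subsets than over all 8 livers, without passing a test. That of Acot1, -0.16 over all livers, stayed just under 0 without livers 4 and 8. In livers 5 and 6, with the lowest Ppara, Cyp4a14 stood at 4678.5 and 5196, beside 6396 in liver 2, its highest value.

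**Figure D2:**
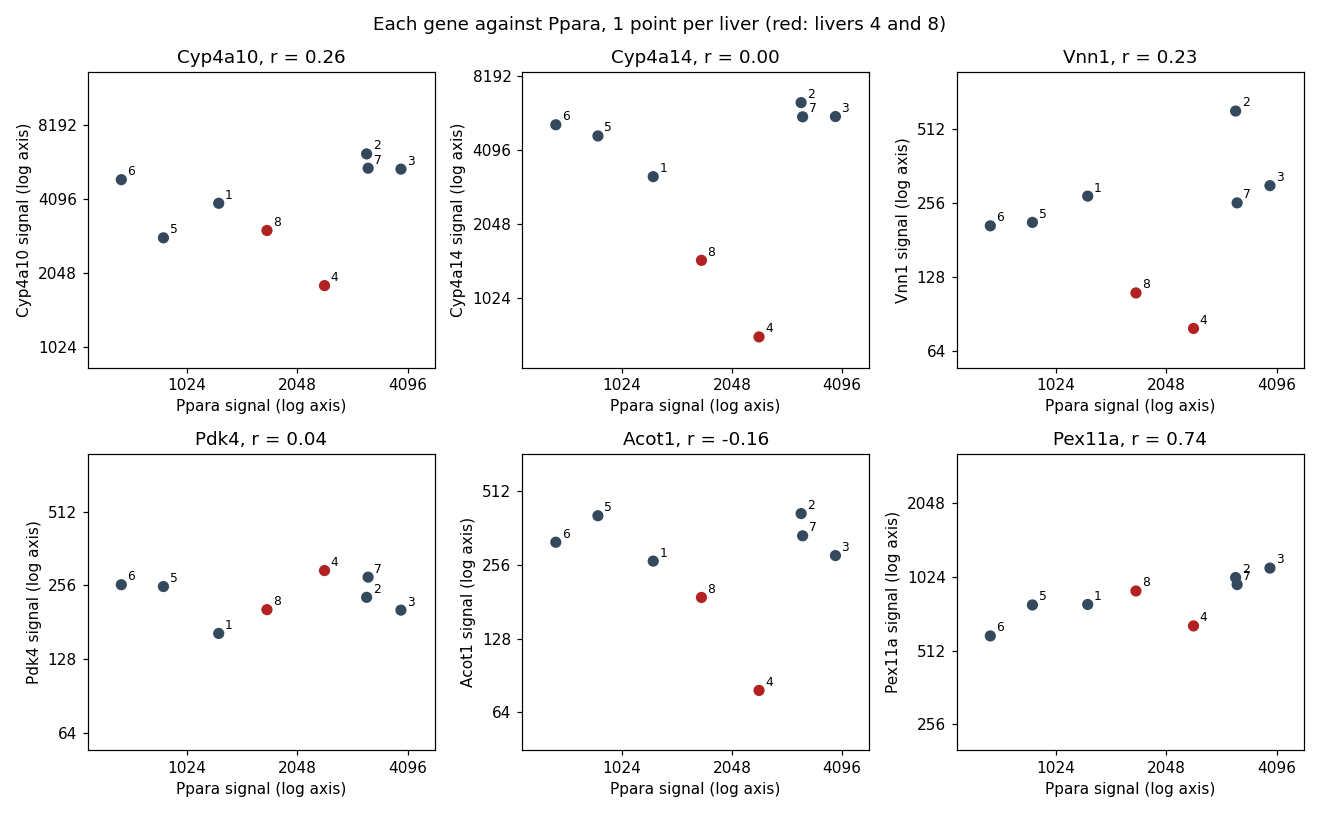
Signal of each target against the signal of Ppara (both log axes), 1 point per liver with its number, livers 4 and 8 in red, and Pearson's r on the log2 scale above each plot. Pex11a had r = 0.74, while Cyp4a14 was 5196 in liver 6, which had the lowest Ppara, and 711 in liver 4, which had a middle value.

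The gene whose level lay closest to that of Ppara was Med1, which encodes a Mediator subunit that binds nuclear receptors as a co-activator. The Med1 signal ran from 74.9 in liver 6 to 536 in liver 3, with r = 0.97 and an limma adjusted p of 0.00413, and livers 1, 5 and 6 were under the filter signal. Nrip1, which encodes the co-repressor RIP140, ran from 144 in liver 5 to 540 in liver 3 (r = 0.94, limma adjusted p = 0.029). They were the 2 of 13 tested genes in a list of receptor partners and co-regulators that passed, both upward. Over all pathway genes listed, 80 tested of 94 on the array, 2 rose with Ppara and 0 fell. These lists were chosen with earlier results of these data known. Of all 6210 tested probe sets 10 (0.161%) rose and 0 (0%) fell.

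Birc6, Apob, Zfp148, Pno1 and Zbtb20 completed the 6 highest r over 8 livers among 4819 genes. Apob, the structural protein of very-low-density lipoprotein, had r = 0.95 and ran from 2262 in liver 5 to 11417 in liver 3 (limma adjusted p = 0.00963). Zbtb20, a zinc-finger repressor of transcription, had r = 0.94 (limma adjusted p = 0.0354). Birc6 (0.96), the zinc-finger factor Zfp148 (0.95) and Pno1 (0.95) did not pass the adjusted threshold. The 4 lowest r belonged to Ptpn21 (-0.92), Plod3 (-0.92), Abhd16a (-0.92) and Ap1s1 (-0.91), and none of them passed.

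These calls depended on few arrays. An exact permutation test called 0 of 6210 probe sets (423 at an unadjusted p under 0.05), and limma called 0 without liver 6 and 2 without liver 5, which had the lowest Ppara, against 10 with all livers. It called 3 without liver 2, 4 without liver 3, 5 without liver 7 and 4 without liver 8. With arrays 1 to 4 and 5 to 8 as a block, 1 call was left, that of Med1 (limma adjusted p = 0.0477), and Nrip1 had an limma adjusted p of 0.184. The spike-in signals that differ between those arrays, and the pyruvate carboxylase ratios that were highest in livers 2 and 3, are given above, and their part in the Ppara relations was not tested.

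A target served as the second reference, because receptor mRNA need not follow receptor activity. The log2 signal of each probe set was fitted on that of Cyp4a14, and 3 of the 6 other genes described here rose with it, Acot1, Cyp4a10 and Vnn1. Of all 6210 tested probe sets 140 (2.25%) rose with Cyp4a14 and 236 (3.8%) fell, with 1214 at an unadjusted p under 0.05. With arrays scaled to a common median instead, 362 rose and 198 fell, a share of 64.6% upward in place of 37.2%. That scaling lowered livers 8 and 4 most (log2 shifts of -0.103 and -0.080), which were the livers with the lowest Cyp4a14. The scaling and the Cyp4a14 contrast are thus not independent. That Cyp4a14 and Vnn1 shared their lowest and highest livers was known when the genes were chosen. The count, and the p-values given below for Vnn1 against Cyp4a14, are therefore not independent evidence of a common pattern.

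Acot1 had the closest relation, with r = 0.94 and rho = 0.79 over 8 livers (exact permutation p = 0.00236 and 0.0279). A doubling of Cyp4a14 went with a 1.57-fold higher Acot1 signal (95% interval 1.37 to 1.80, limma adjusted p = 0.00216). Cyp4a10 had r = 0.87 and rho = 0.90 (exact permutation p = 0.00647 and 0.00456), with 1.38-fold per doubling (95% interval 1.21 to 1.58, limma adjusted p = 0.0113). Vnn1 had r = 0.87 and rho = 0.83 (exact permutation p = 0.00253 and 0.0154), with 1.62-fold per doubling (95% interval 1.32 to 1.97, limma adjusted p = 0.0113). The lowest Vnn1 and Acot1 signals may be background, and their part in the size of these slopes was not tested. The Cyp4a10 probe set may include signal from other Cyp4a genes, of which Cyp4a14 is 1. The part of such shared signal in its relation with Cyp4a14 was not tested either.

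The other 3 did not pass. For Pex11a r with Cyp4a14 was 0.42 (exact permutation p = 0.301, limma adjusted p = 0.509). For Pdk4 it was -0.15 (exact permutation p = 0.712, limma adjusted p = 0.886), and Ppara itself is given above. Acot1, with 2 hexamers in the promoter window shown, and Pdk4, with 1, thus sat at opposite ends of these values, which is a description of 2 genes and not a relation.

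The 3 calls depended on liver 4. Without it the limma adjusted p was 0.191 for Acot1, 0.312 for Cyp4a10 and 0.204 for Vnn1, with r of 0.85, 0.70 and 0.77. Without both livers 4 and 8, the farthest from the median of Cyp4a14, r was 0.54, 0.63 and 0.43 (exact permutation p = 0.283, 0.188 and 0.308) and limma called 0 of 6210 probe sets, with 385 at an unadjusted p under 0.05. In those 6 livers rho was 0.49 for Acot1, 0.89 for Cyp4a10 and 0.60 for Vnn1 (exact permutation p = 0.356, 0.0333 and 0.242, not adjusted). The limma calls and the size of r therefore rest on livers 4 and 8. The rank order of Cyp4a10 followed that of Cyp4a14 in the other 6 livers too, at that unadjusted p. With a Cyp4a10 probe set marked for shared sequence, this order may in part be Cyp4a14 signal measured again, which was not tested. Over all probe sets limma called 39 without liver 4 and 184 without liver 8, in place of 376. The calls of Acot1, Cyp4a10 and Vnn1 stood when any of the other 7 livers was left out, and with the array block their limma adjusted p was 0.00289, 0.0123 and 0.00244. When the exact permutation p was adjusted over all tested probe sets, 0 genes passed, with 0.0794, 0.109 and 0.0797 for Acot1, Cyp4a10 and Vnn1.

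**Figure D3:**
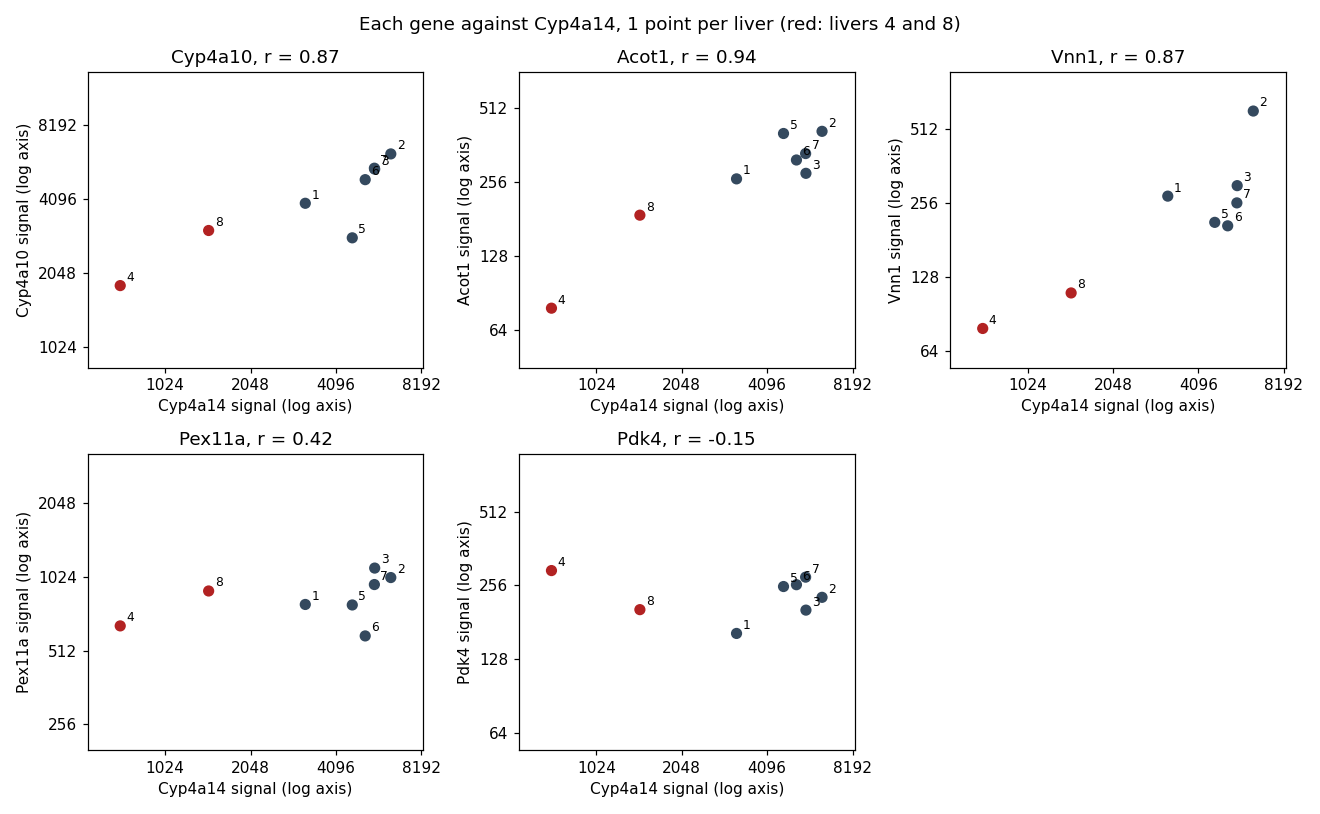
Signal of 5 targets against the signal of Cyp4a14 (both log axes), 1 point per liver with its number and livers 4 and 8 in red. Acot1 (r = 0.94), Cyp4a10 (0.87) and Vnn1 (0.87) were lowest where Cyp4a14 was lowest, while Pex11a (0.42) and Pdk4 (-0.15) did not pass the test.

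**Figure D4:**
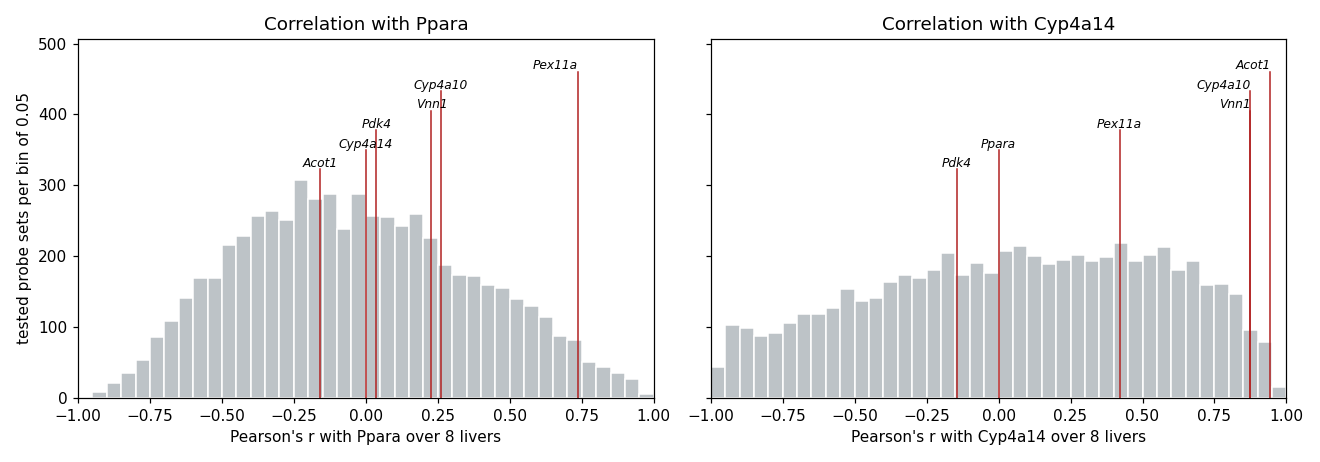
Number of tested probe sets per bin of 0.05 in Pearson's r over 8 livers, with Ppara (left) and with Cyp4a14 (right), and a red line for each gene described here. The targets lay from -0.16 to 0.74 with Ppara, and Acot1, Cyp4a10 and Vnn1 lay near the upper end with Cyp4a14.

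Other genes of the pathway were read against Cyp4a14 in 5 lists that together had 80 tested genes of 130 listed. Of these, 9 of 80 rose with Cyp4a14 and 0 fell, beside 2.25% and 3.8% of all tested probe sets. The lists were chosen with earlier results of these data known, so the counts from them are not independent evidence. At an unadjusted p under 0.05, 26 of the 80 rose and 0 fell, while 19.5% of all tested probe sets passed in either direction. With arrays scaled to a common median 17 of the 80 rose and 0 fell, beside 362 and 198 of 6210, and without livers 4 and 8 no gene passed. Liver 4 held the lowest signal for 38.8% of these pathway genes and for 22.4% of all tested genes.

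The peroxisomal and microsomal list held 6 of the 9 genes, from 22 tested, with a median r of 0.59 against 0.08 for all tested probe sets. The median over all tested probe sets itself was 0.33 with arrays scaled to a common median, so list medians are relative to the scaling. Ech1, an isomerase for unsaturated fatty acids, ran from 2167 in liver 4 to 4131 in liver 5 (limma adjusted p = 0.0033). Aldh3a2, a fatty aldehyde dehydrogenase that acts after omega-hydroxylation, ran from 2315 in liver 4 to 5500 in liver 3 (limma adjusted p = 0.00612). Pex14, a docking protein of peroxisomal import, ran from 1394 to 2601 (limma adjusted p = 0.00915), and Acaa1b, a peroxisomal thiolase, from 11290 to 22367 (limma adjusted p = 0.0144). The other genes of the 6 were Hsd17b4, the peroxisomal bifunctional enzyme, and Crat, carnitine acetyltransferase, both also lowest in liver 4. The probe sets used for Aldh3a2, Pex14 and Acaa1b had r of 0.92, 0.95 and 0.90 with Cyp4a14. Further tested probe sets of these genes had 0.68 for Aldh3a2, 0.66 and 0.23 for Pex14, and 0.85 for Acaa1b.

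The other lists gave at most 1 gene each as deposited, and 5 mitochondrial, 2 uptake and 2 lipid storage genes with arrays scaled to a common median. Of 15 mitochondrial oxidation and ketone genes, Hadhb, a subunit of the trifunctional protein, passed (limma adjusted p = 0.0471), although the median r of the list was 0.71. Of 10 genes of fatty acid uptake, activation and binding (median r 0.45), Angptl4, a secreted inhibitor of lipoprotein lipase, passed (limma adjusted p = 0.00707). Its signal was 299.5 in liver 4 and 1058 in liver 2, on a probe set with a mark of shared sequence. Another tested Angptl4 probe set had r = 0.94 with Cyp4a14. Of 20 lipid storage and other responsive genes (median r 0.50), Retsat, a retinol saturase, passed. None of 13 receptor partners and co-regulators did, with a median r of 0.13.

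Retsat was also the gene with the highest r with Cyp4a14 of all 4819, at 0.98, from 715 in liver 4 to 2976 in liver 2 (limma adjusted p = 0.000123). It was followed by the folate transporter Slc46a1 (0.98), the mitochondrial ribosomal protein Mrpl15 (0.97), the ATP synthase subunit Atp5e (0.97), Ech1 (0.96) and Sun2 (0.96), all of which passed. Atp5e followed the order of Cyp4a14 in all 8 livers, with rho = 1, and kept r = 0.98 without livers 4 and 8. The Atp5e probe set carries a mark that was counted here among those of shared sequence.

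At the other end, the lowest r belonged to Lcn2 (-0.98), Lmo2 (-0.98), Selplg (-0.98) and Lilr4b (-0.97). Lcn2 encodes lipocalin-2, an iron-scavenging acute-phase protein. The Lcn2 signal ran from 133 in liver 2, where Cyp4a14 was highest, to 10195 in liver 4, where Cyp4a14 was lowest (limma adjusted p = 0.000104). Its r was -0.95 over the 6 livers other than 4 and 8. Selplg and Lilr4b are genes of white blood cells, and both were highest in liver 4. Without livers 4 and 8 their r was -0.91 and -0.56. The Lilr4b signal was 134.8 to 137 in livers 2, 3, 5 and 7, under the filter signal of 162, and may be background there. Its mean log2 signal passed the filter with 1333.6 in liver 4 and 517.9 in liver 8. The filter and the r of Lilr4b are thus not independent. Lcn2 was under the filter signal in livers 2, 3 and 7. The part of these low signals in the relations with Cyp4a14 was not tested.

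Markers of macrophages, of the interferon response and in part of the acute phase moved opposite to Cyp4a14. The summed signal of 13 macrophage and Kupffer cell genes was 24425 in liver 4 and 18113 in liver 8, against 5628 to 11448 in the other 6 livers. Of the 11 tested genes of this list, 10 fell as Cyp4a14 rose. The gene that did not pass was Clec4f, from 986 in liver 7 to 1817 in liver 4 (r = -0.69, limma adjusted p = 0.177). The summed signal of 15 interferon response genes was 63988 in liver 4 and 45144 in liver 8, against 4210.1 to 16265 in the others, and 11 of 11 tested genes fell. Of 13 acute-phase genes 6 fell, and of 6 tested stellate and fibroblast genes 1 fell, Col3a1. Of all 6210 tested probe sets 236 (3.8%) fell, or 198 with arrays scaled to a common median. As with all probe sets, none of these marker calls was left without livers 4 and 8. The marker lists too were chosen with earlier results of these data known, so their counts are not independent evidence.

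Other marker lists showed no call in the Cyp4a14 fit. These were the lists of lymphocyte (4 tested), endothelial (5 tested), hepatocyte (9 tested) and adipocyte genes (1 tested). The summed signal of 9 hepatocyte genes was 98622 in liver 4 and 106271 in liver 8, against 99318 to 139004 in the others, so these 2 livers were not apart from liver 6. The lymphocyte genes Cd3d, Cd3g, Cd8a, Cd8b1, Cd2 and Prf1 were under the filter signal on every array, as was the macrophage gene Marco. No marker gene passed in the Ppara fit. The part of these markers in the relations with Cyp4a14 was not tested.

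**Figure D5:**
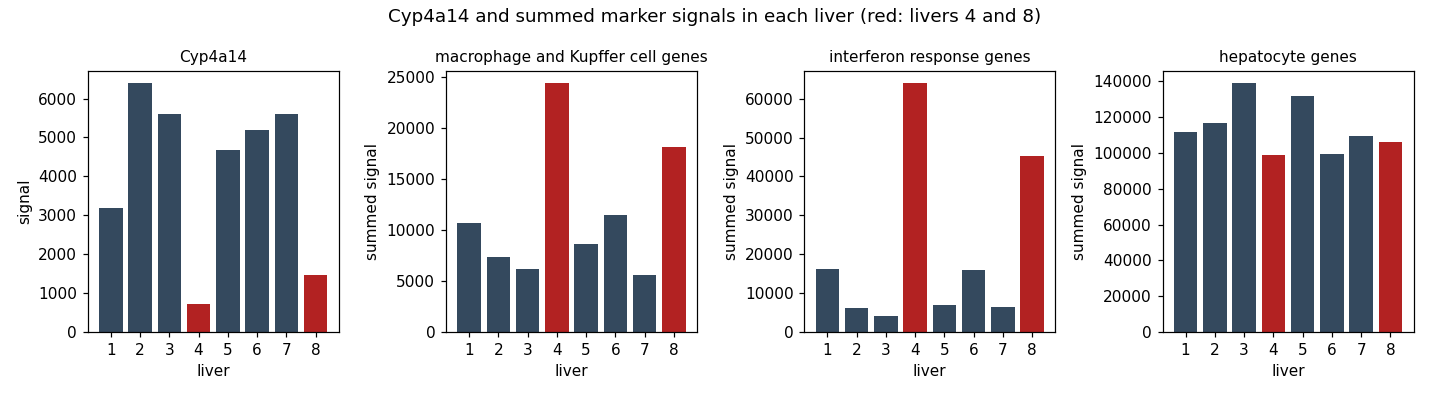
Cyp4a14 signal and the summed signals of the macrophage and Kupffer cell, interferon response and hepatocyte genes in livers 1 to 8 (bars from 0, 1 array each, livers 4 and 8 in red). Where Cyp4a14 was 711 and 1458, the interferon sum was 63988 and 45144, and the hepatocyte sum was 98622 and 106271.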

How the data were processed

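Liver total RNA of 8 mice was hybridised to U74Av2 arrays and read on a Hewlett-Packard GeneArray scanner, per the labels. The deposited table gives 1 linear intensity per probe set and array for 12488 probe sets, and the sources used here do not give the software and scaling behind it. Trimmed means differed by 0.009% between arrays, so the intensities were used as the authors deposited them. The number of arrays limits the precision.

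Gene symbols came from the platform annotation (10833 of 12422 non-control probe sets had 1 symbol, 396 several, 1193 none). Signals below 11.2, the 10th percentile, were set to it and converted to log2. The 6211 probe sets whose mean log2 signal exceeded the median of all, at 162, were tested. Fits on Ppara and on Cyp4a14 used limma 3.58.1 in R 4.3.3 (lmFit, then eBayes with trend and robust), two-sided, with Benjamini-Hochberg adjustment, and were tested on simulated data. Exact permutation tests ran over all 40320 pairings. A gene was represented by its brightest tested probe set.

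The members and lists were chosen with earlier results of these data known. Genes named beyond the 7 were the 6 highest and 4 lowest r per fit and pathway genes past the threshold, at most 4 per list and fit by p. Hsd17b4 and Crat completed a count. Alternatives were other scalings, floors, filters, tests, an array block and livers left out. Promoters are from RefSeq, assembly GRCm38.p6.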

Additional observations from a re-analysis of the deposited data

How the results depend on the processing

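The count of probe sets past the threshold in the Ppara fit was 10, and 0 with exact permutation, 1 with no filter, 1 with the array block and 0 to 8 with each liver left out. Other scalings, floors, a filter at percentile 25 and removal of shared-sequence probe sets gave 7 to 10, and omission of livers 4 and 8 gave 13. In the Cyp4a14 fit it was 376, and 0 with exact permutation, 0 without livers 4 and 8, 39 without liver 4, 184 without liver 8 and 267 to 393 without each of the others. The other settings gave 338 to 560. The causes were not tested. Signs turned only for values that had not passed. The r of Cyp4a14 with Ppara was 0.073 with median scaling, 0.089 with the array block, 0.51 without livers 4 and 8, and -0.15 to 0.24 with each liver left out. The r of Pdk4 with Ppara was -0.069 without livers 4 and 8 and -0.20 to 0.23 with each liver left out. With Cyp4a14 it was 0.051 with median scaling, 0.0085 with quantile normalization, 0.67 without livers 4 and 8, and -0.30 to 0.48 with each liver left out. With each liver left out, the r with Ppara was -0.0014 to 0.46 for Vnn1 and -0.32 to 0.0013 for Acot1. Whole arrays shifted by -0.10 (liver 8) to 0.11 (liver 3) on the log2 scale under median scaling, with -0.080 in liver 4. No paired analysis was possible because the labels give only 1 group.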

Other observations

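Besides Med1, Apob, Zbtb20 and Nrip1, the probe sets that rose with Ppara were 5 named genes and 1 probe set without a symbol. The 5 are named here after their values were seen. Il6ra, the interleukin-6 receptor, had its lowest signal, 233.5, in liver 6 and its highest, 1076, in liver 3, with 1 liver (3) well above the next, 619 in liver 7 (limma adjusted p = 0.0333). Fzd4, a Wnt receptor, ran from 1013 to 2328 (limma adjusted p = 0.0445). Noct, a rhythmically expressed phosphatase of liver, ran from 508 in liver 5 to 1990 in liver 7 (limma adjusted p = 0.0355). Sf3b1, a splicing factor, ran from 193 in liver 5 to 916 in liver 4, and the RNA helicase Ddx3x from 838.5 in liver 6 to 2348 in liver 3. The probe sets of Noct, Ddx3x and Fzd4 carry marks of shared sequence. Il6ra, Fzd4, Noct, Sf3b1 and Ddx3x did not pass with arrays 1 to 4 and 5 to 8 as a block (limma adjusted p from 0.184 to 0.296).

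The receptors and co-activator closest to PPAR-alpha were also on the array, and are named after their values were seen. Ppard ran from a signal of 5.70 to 19.7 and Ppargc1a from 22.5 to 84.6, both under the filter signal of 162 and not tested. Pparg ran from 174 in liver 5 to 320 in liver 2, with r = 0.67 with Ppara, and passed in neither fit.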
